A study of Mus musculus with 6 samples.

Results

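The vascular endothelial growth factor (VEGF) family was followed in mouse hearts 3 days after infarction through 10 genes chosen by name: the ligands *Vegfa*, *Vegfb*, *Vegfc*, *Vegfd* (formerly *Figf*) and *Pgf* (NCBI genes 22339, 22340, 22341, 14205 and 18654), the receptors *Flt1*, *Kdr* and *Flt4* (14254, 16542 and 14257), and the co-receptors *Nrp1* and *Nrp2* (18186 and 18187). All 10 were found by their NCBI gene number among the 17441 genes listed in any library, and all 10 passed the filter on low values. RNA came from heart tissue below the ligature of 12-week-old male mice on a C57BL/6 background, in 3 groups of 2 libraries: wild-type mice after the same operation without ligation (WT Sham), wild-type mice in which the left anterior descending artery was tied off to cause a myocardial infarction (WT MI), and mice labelled as *Card9* knockouts with the same ligation (Card9 KO MI, called the KO-labelled infarct libraries because of the *Card9* values below). CARD9 is an adaptor protein of innate immune signalling in myeloid cells. No sham-operated *Card9* KO mice were analysed here, and the labels number the libraries without saying whether each came from a separate mouse, so the p-values measure the spread between these libraries.

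VEGF ligands are secreted proteins that act on tyrosine kinase receptors, mainly of endothelial cells. VEGF-A binds FLT1 and KDR, of which KDR carries most of the signal for endothelial growth and permeability, whereas FLT1 binds VEGF-A tightly, signals weakly and also exists as a soluble decoy. VEGF-B and placental growth factor (PlGF, encoded by *Pgf*) bind FLT1 but not KDR, and VEGF-C and VEGF-D act on FLT4, the receptor of lymphatic endothelium. Neuropilins (*Nrp1*, *Nrp2*) bind VEGFs next to these receptors and are also receptors of class 3 semaphorins. In the heart, cardiomyocytes are a known source of VEGF-A and VEGF-B.

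After infarction, 3 members were called higher and 3 lower, against 27.7% and 9.39% of all genes. *Pgf* rose 7.67-fold in mean FPKM (fragments per kilobase, relative to the fragments of the library), *Vegfd* 2.47-fold and *Flt4* 1.59-fold, while *Vegfa*, *Vegfb* and *Kdr* fell to 0.617, 0.576 and 0.619 of their WT Sham means. The calls of *Vegfd* and *Flt4* were lost in some settings. *Flt1*, *Nrp1*, *Nrp2* and *Vegfc* were not called. In the KO-labelled infarct libraries, only *Pgf* among the 10 was called different from WT MI, at 0.478 of the WT MI mean, and that call was lost when any of the 4 infarct libraries was left out.

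The limits of these libraries bear on every value. Read counts were not analysed here. From the spacing of the lowest FPKM values, the libraries held an estimated 3020000 to 4280000 fragments. Depth went with the groups, at 3140000 and 3020000 for WT Sham, 4010000 and 3910000 for WT MI, and 4280000 and 4100000 under the KO label. On a transcript of 2 kb, 3 fragments were worth an FPKM between 0.35 and 0.497. The lowest member value, 2.62, lay above this floor, which covers counting error only. *Card9* itself stood at an FPKM of 0.99 and 1.03 for WT Sham, 3.39 and 5.08 for WT MI, and 9.85 and 6.94 in the KO-labelled infarct libraries. It was thus not lower under the KO label, a value for the whole gene does not show whether its fragments came from a deleted part, and each direction between the infarct groups rests on the labels. Differences were tested with limma on log2(FPKM + 1) over 13120 genes, with a call at a Benjamini-Hochberg adjusted p below 0.05; this scale understates the change of low genes. In all, 3637 genes were called higher and 1232 lower after infarction in WT mice, and the median log2 difference of all genes was 0.19. This balance depended on scaling: upper-quartile scaling gave 2453 and 2351 at a median of -0.03, quantile normalization 2288 and 2416 at -0.07, and scaling that leaves out the 100 most abundant genes 2869 and 1830 at 0.06. In tissue RNA, fewer cells of a type and less RNA per cell cannot be told apart.

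The promoters of the 6 members called after infarction are shown because these genes moved in opposite directions within the family. Each is the 250 bases before the gene's start in the RefSeq table of GRCm38.p6, taken at the most upstream start (the table holds 2 windows each for *Vegfa* and *Pgf*), and this build differs from the mm9 build of the expression values. Capitals mark matches, on either strand, to the GC box GGGCGG, the TATA box TATAAA, the hypoxia response element core ACGTG, the cyclic AMP response element TGACGTCA, and the metal response element core TGCACNC or TGCGCNC. The *Vegfa* window is chr17:46032378-46032627 on the minus strand, that of *Vegfb* chr19:6987652-6987901 on the minus strand, and that of *Kdr* chr5:75978456-75978705 on the minus strand. The *Pgf* window is chr12:85177314-85177563 on the minus strand, that of *Vegfd* chrX:164373272-164373521 on the plus strand, and that of *Flt4* chr11:49609429-49609678 on the plus strand.
*Vegfa* promoter: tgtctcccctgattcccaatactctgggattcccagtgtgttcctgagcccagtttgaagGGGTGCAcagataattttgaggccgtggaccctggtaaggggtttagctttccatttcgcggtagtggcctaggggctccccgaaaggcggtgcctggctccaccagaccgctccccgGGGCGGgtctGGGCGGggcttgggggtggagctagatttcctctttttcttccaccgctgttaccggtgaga
*Vegfb* promoter: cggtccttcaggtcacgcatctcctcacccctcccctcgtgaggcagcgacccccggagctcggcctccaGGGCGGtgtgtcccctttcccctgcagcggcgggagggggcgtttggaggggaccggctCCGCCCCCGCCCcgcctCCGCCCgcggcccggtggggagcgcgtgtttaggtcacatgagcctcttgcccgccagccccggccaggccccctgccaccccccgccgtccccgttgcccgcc
*Kdr* promoter: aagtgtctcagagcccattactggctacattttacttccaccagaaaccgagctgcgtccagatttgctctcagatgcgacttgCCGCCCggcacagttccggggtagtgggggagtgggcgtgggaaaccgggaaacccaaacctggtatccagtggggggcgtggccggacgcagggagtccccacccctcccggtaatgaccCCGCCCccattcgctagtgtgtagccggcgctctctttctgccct
*Pgf* promoter: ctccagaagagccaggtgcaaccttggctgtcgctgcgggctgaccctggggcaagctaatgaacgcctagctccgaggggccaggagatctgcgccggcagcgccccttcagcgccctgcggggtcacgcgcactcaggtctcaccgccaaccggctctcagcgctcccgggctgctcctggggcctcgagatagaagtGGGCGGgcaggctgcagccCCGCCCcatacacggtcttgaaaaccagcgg
*Vegfd* promoter: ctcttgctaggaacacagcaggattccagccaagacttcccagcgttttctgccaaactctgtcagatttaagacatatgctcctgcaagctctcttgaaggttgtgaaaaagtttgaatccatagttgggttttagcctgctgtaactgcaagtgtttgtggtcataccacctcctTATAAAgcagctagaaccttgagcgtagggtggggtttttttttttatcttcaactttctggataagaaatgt
*Flt4* promoter: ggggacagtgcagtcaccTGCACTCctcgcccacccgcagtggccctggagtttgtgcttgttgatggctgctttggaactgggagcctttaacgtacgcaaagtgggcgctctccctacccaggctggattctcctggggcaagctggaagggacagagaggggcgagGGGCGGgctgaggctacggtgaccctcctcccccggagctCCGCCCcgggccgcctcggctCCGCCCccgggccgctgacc

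GC boxes were found in 9 of the 10 member windows, against 32.7% of 32851 windows in the table. *Vegfd*, the exception, had a GC content of 42.4%, the lowest of the 10, and a match to the TATA box that starts 73 bases before the start. A match to the TATA box was also in the *Flt1* window, 31 bases before the start, and 12.4% of all windows hold these letters. *Vegfb* had the highest GC content, 76.4%, and 4 GC boxes, against a median GC content of 52.4% over all windows. The hypoxia core was in 0 of the 10 windows and in 16.6% of all windows, the cyclic AMP element was in the *Flt1* window and in 1.55% of all windows, and the metal response core was in the windows of *Vegfa* and *Flt4* and in 21.4% of all. GC boxes were in the windows of all 3 members that fell and of 2 of the 3 that rose. A match is a description of the letters and no site of binding, and a missing match says only that these letters are not in this window.

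**Figure D1:**
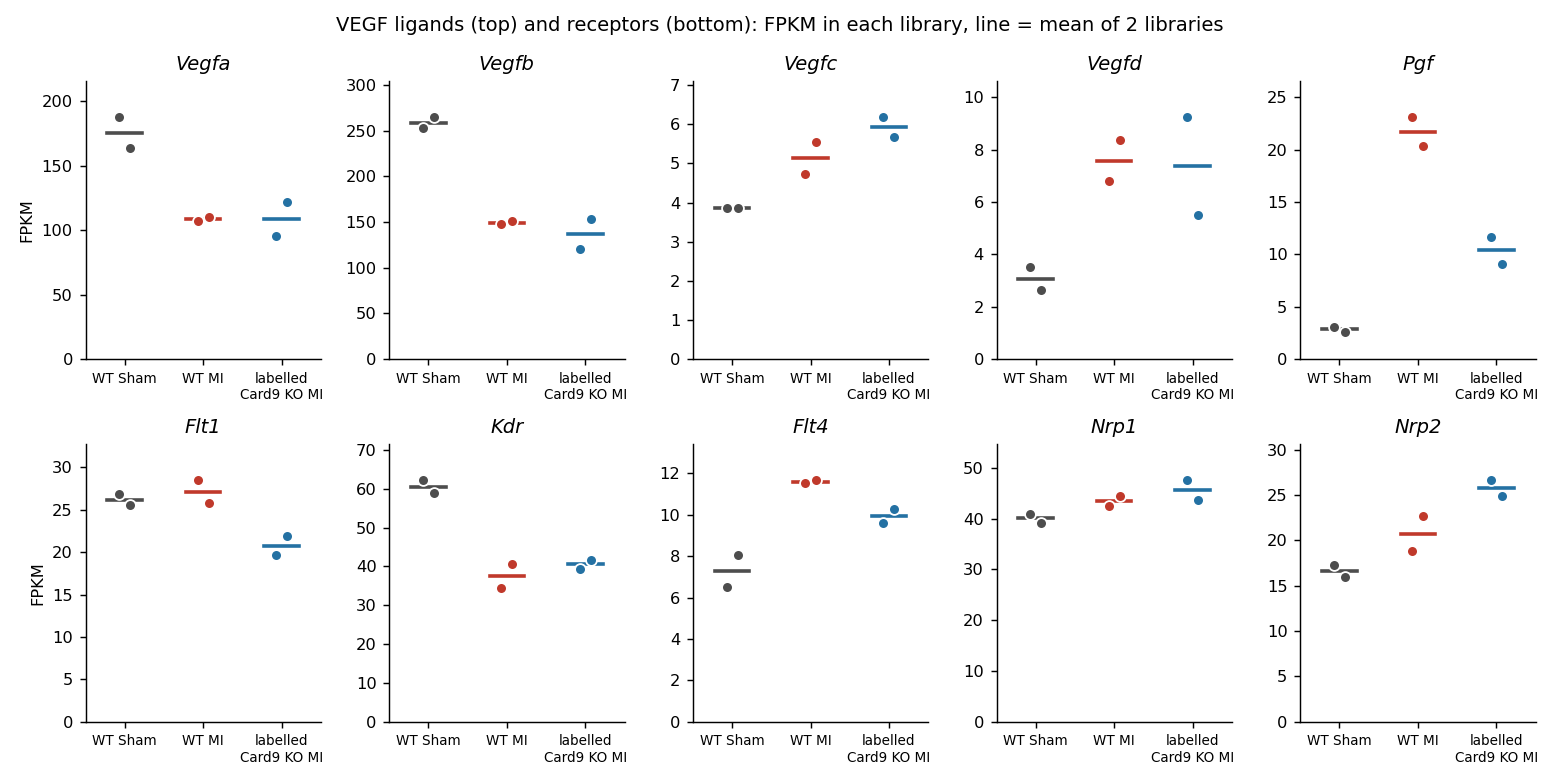
FPKM of the 5 VEGF ligands (upper row) and the 5 receptors and co-receptors (lower row) in each of the 6 libraries, as points, with the mean of each group as a line; each axis starts at 0. *Pgf* sits between 20.31 and 23.1 for WT MI against 2.63 and 3.03 for WT Sham, while *Vegfa*, *Vegfb* and *Kdr* are lower in all 4 infarct libraries than in WT Sham.

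To see what infarction did to the ligands, WT MI was compared with WT Sham. Of the 10 members, 3 were called higher, against 27.7% of all genes tested, and 3 lower, against 9.39% of all genes. The libraries of both groups did not overlap for 9 of the 10, against 70.4% of all genes. *Vegfa* (mm9 chromosome 17, 46153942 to 46169326, minus strand), the principal angiogenic ligand, stood at an FPKM of 187.59 and 163.96 for WT Sham (176 ± 16.7, SD, n = 2) and 107.14 and 109.94 for WT MI (109 ± 1.98, SD, n = 2). Both WT MI libraries lay below both WT Sham libraries, and the log2 fold change was -0.69 (SE 0.13, adjusted p = 0.0053 from limma). *Vegfb* (chromosome 19, 7056963 to 7062141, minus strand), the FLT1 ligand most abundant in these hearts, had 252.93 and 264.58 for WT Sham (259 ± 8.24, SD, n = 2) and 147.46 and 150.72 for WT MI (149 ± 2.31, SD, n = 2). Its log2 fold change was -0.79 (SE 0.12, adjusted p = 0.0020 from limma). Both falls kept their call under each of the 15 settings tried, and relative to the median of all genes they were -0.87 and -0.98.

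*Pgf* (chromosome 12, 86507589 to 86518246, minus strand) had the largest change of the family. Its FPKM was 3.03 and 2.63 for WT Sham (2.83 ± 0.283, SD, n = 2) and 23.1 and 20.31 for WT MI (21.7 ± 1.97, SD, n = 2), a log2 fold change of 2.57 (95% interval 2.19 to 2.94, adjusted p = 4.9e-05 from limma), called under all 15 settings. *Vegfd* (chromosome X, 160811310 to 160840582, plus strand), a ligand of FLT4, stood at an FPKM of 3.52 and 2.62 for WT Sham and 6.81 and 8.35 for WT MI. The groups did not overlap, and the log2 fold change was 1.08 (95% interval 0.51 to 1.64, adjusted p = 0.011 from limma). This was 0.64 with 5 in place of 1 added to the FPKM, and the call was lost without WT Sham replicate 2 (0.92) or WT MI replicate 2 (0.95). *Vegfc* (chromosome 8, 55162886 to 55271808, plus strand), the other FLT4 ligand, had 3.87 and 3.86 for WT Sham and 4.74 and 5.55 for WT MI, without overlap but also without a call (log2 fold change 0.33, 95% interval -0.03 to 0.7, adjusted p = 0.136 from limma).

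Of the receptors of VEGF-A, *Kdr* fell and *Flt1* was not called; the difference between them was not tested. *Kdr* (chromosome 5, 76328852 to 76374483, minus strand) stood at an FPKM of 62.26 and 58.86 for WT Sham (60.6 ± 2.4, SD, n = 2) and 34.37 and 40.59 for WT MI (37.5 ± 4.4, SD, n = 2). It was lower in both WT MI libraries, with a log2 fold change of -0.68 (SE 0.11, adjusted p = 0.0028 from limma), called under all 15 settings. *Flt1* (chromosome 5, 148373180 to 148537587, minus strand) had 26.86 and 25.53 for WT Sham and 28.51 and 25.76 for WT MI, with overlapping libraries. Its log2 fold change was 0.05 (95% interval -0.22 to 0.31, adjusted p = 0.774 from limma), and it lay between -0.19 and -0.1 under the 3 other scalings. A single FPKM per gene does not tell the soluble form of *Flt1* from the membrane receptor, nor the splice forms of *Vegfa*; GENCODE lists 3 and 9 protein-coding transcripts for these genes.

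*Flt4* (chromosome 11, 49422765 to 49466241, plus strand) rose, with an FPKM of 6.51 and 8.08 for WT Sham and 11.52 and 11.68 for WT MI. The log2 fold change was 0.61 (95% interval 0.28 to 0.94, adjusted p = 0.013 from limma). The call was lost under upper-quartile (0.39) and quantile (0.34) scaling, and without WT Sham replicate 1 (0.47), WT MI replicate 1 (0.62) or WT MI replicate 2 (0.6). Neuropilin genes were not called. *Nrp1* (chromosome 8, 130882973 to 131029362, plus strand) had 40.96 and 39.2 for WT Sham and 42.47 and 44.48 for WT MI (log2 fold change 0.11, 95% interval -0.11 to 0.34; -0.13, -0.05 and -0.03 under upper-quartile, quantile and abundant-gene scaling). *Nrp2* (chromosome 1, 62749859 to 62865269, plus strand) had 17.34 and 16.01 for WT Sham and 18.8 and 22.73 for WT MI (log2 fold change 0.3, adjusted p = 0.108 from limma).

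**Figure D2:**
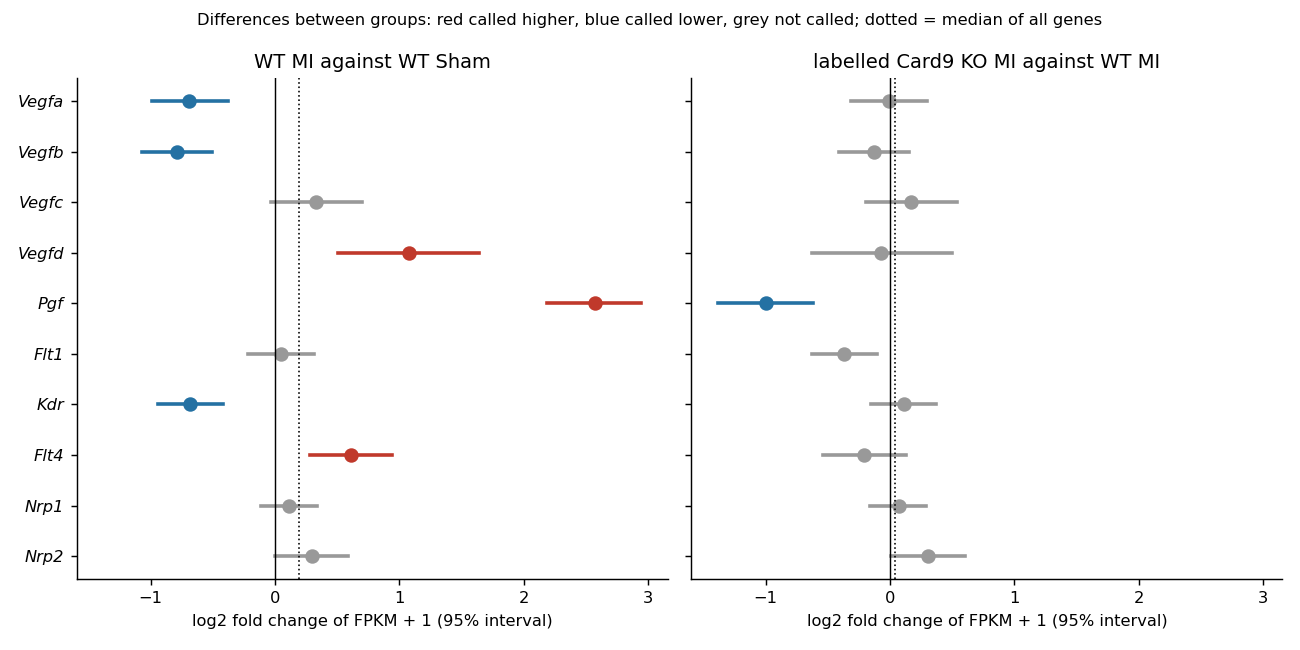
Log2 fold change of FPKM + 1 with its 95% interval from limma for each member, for WT MI against WT Sham (left) and for the KO-labelled infarct libraries against WT MI (right). Called differences are red (higher) or blue (lower), the others grey, and the dotted line is the median of all genes (0.19 on the left, 0.04 on the right); *Pgf* is at 2.57 on the left and -1.0 on the right.

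Cell type markers were followed beside these results, where 27.7% of all genes were called higher and 9.39% lower. All 12 cardiomyocyte markers were measured, 10 fell and 0 rose (median log2 fold change -0.95, and -0.38 with quantile normalization), and their FPKM summed to 71073 and 72554 for WT Sham and 40046 and 41674 for WT MI. *Vegfa* and *Vegfb* fell beside them; the part of cardiomyocyte RNA in this was not tested. Of 20 endothelial markers, endothelium being the known main site of *Kdr* expression, 7 rose and 1 fell at a median of 0.18, against 0.19 for all genes; under upper-quartile and quantile scaling this median was -0.06 and -0.02. The largest rises were those of *Ecscr*, an endothelial surface protein gene, from an FPKM of 11.85 and 9.34 to 33.67 and 33.0, and of the transcription factor gene *Sox17*, from 3.01 and 3.14 to 6.36 and 6.14. The 1 that fell was *Cyyr1*, from 20.67 and 18.32 to 11.54 and 12.5, and the tight junction gene *Cldn5*, not called, had 17.28 and 13.58 for WT Sham and 8.95 and 10.29 for WT MI. The endothelial markers summed to 648 and 601 for WT Sham and to 736 and 751 for WT MI. Myeloid and fibroblast markers rose beside *Pgf*: 12 of 12 macrophage markers (median 1.79), all 6 neutrophil markers that could be tested of 10 (median 2.86, from 1.52 with 5 to 4.34 with 0.1 added to the FPKM), and 10 of 11 fibroblast markers (median 1.43). Summed macrophage marker FPKM was 430 and 367 for WT Sham and 1492 and 1892 for WT MI, and whether these cells contributed to *Pgf* was not tested. The granule gene *Camp* and the neutrophil surface antigen gene *Ly6g* are listed in no library. Of the neutrophil markers tested, *Mmp8* (0.13 and 0.0) and *Retnlg* (0.54 and 0.56) stayed below an FPKM of 1 in WT Sham. Both genes, and *S100a8* and *S100a9*, needed the infarct libraries, where they are high, to pass the filter. The count of neutrophil rises is therefore a description.

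The study asked how *Card9* loss alters the infarcted heart, which for this family is the comparison of the KO-labelled infarct libraries with WT MI. Of the 10 members, 0 were called higher, against 0.816% of all genes, and 1 lower, against 0.587%; 3 members had an unadjusted p below 0.05. In the study's own screen, recomputed on group means (fold change of at least 2 and a probability of at least 0.8), 0 members were higher and 1, *Pgf*, lower. The libraries did not overlap for 5 members, against 52.7% of all genes. With upper-quartile scaling, 84 genes in all were called higher and 97 lower, against 107 and 77 as deposited. Without the filter on low values, 7 were called higher and 5 lower, so the calls of this comparison, also those below, depended on the fit.

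*Pgf* stood at an FPKM of 11.69 and 9.08 in the KO-labelled infarct libraries (10.4 ± 1.85, SD, n = 2) against 23.1 and 20.31 for WT MI. Every library labelled *Card9* KO MI lay below every WT MI library and above every WT Sham library. The log2 fold change against WT MI was -1.0 (95% interval -1.38 to -0.62, adjusted p = 0.039 from limma). *Pgf* is among the genes the study itself picked on these libraries, so this is a description and no independent evidence. The direction was the same under all 15 settings, with an adjusted p from 0.025 to 0.284 and a call in 7 of them. The fold change was -0.91 without WT MI replicate 1, -1.09 without WT MI replicate 2, and -1.17 when *Card9* KO MI replicate 1 was omitted or -0.84 when *Card9* KO MI replicate 2 was, and none of these 4 fits called it. The call was also lost with an FPKM of 0.1 added, without the filter, with the infarct groups fitted alone and with the variance prior held constant.

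The remaining ligands were not called. *Vegfa* stood at an FPKM of 95.66 and 122.11 in the KO-labelled infarct libraries (109 ± 18.7, SD, n = 2), values on either side of both WT MI libraries. Its log2 fold change was -0.01 (95% interval -0.31 to 0.3), so a change of more than about 0.31 in either direction lies outside the interval. *Vegfb* had 120.65 and 153.38 (log2 fold change -0.13, 95% interval -0.41 to 0.15), *Vegfc* 6.18 and 5.67 (0.17, 95% interval -0.19 to 0.54), and *Vegfd* 9.23 and 5.51 (-0.07, 95% interval -0.63 to 0.5). The *Vegfd* libraries spanned a wider range under the KO label than in WT MI, and its interval is the widest of the family.

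Among the receptors, *Flt1* stood at an FPKM of 19.63 and 21.93 in the KO-labelled infarct libraries (20.8 ± 1.63, SD, n = 2), below both WT MI libraries (27.1 ± 1.94, SD, n = 2). The log2 fold change of -0.37 (95% interval -0.63 to -0.1) had an adjusted p of 0.139 from limma, and no setting called it (0.111 to 0.475). *Nrp2* had 26.67 and 24.93, above both WT MI libraries, with a log2 fold change of 0.31 (95% interval 0.01 to 0.6, adjusted p = 0.237 from limma). *Flt4* had 9.61 and 10.26, below WT MI without a call (-0.21, adjusted p = 0.477 from limma). *Kdr* had 39.27 and 41.74 and *Nrp1* 47.58 and 43.59, and the libraries of both genes overlapped with those of WT MI. Their log2 fold changes were 0.11 (95% interval -0.15 to 0.37) and 0.07 (95% interval -0.16 to 0.29).

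Cell type markers were set beside *Pgf* in this comparison as well, and of the lists in this paragraph only that of fibroblasts had calls. The pericyte and smooth muscle list and the lymphatic list also had calls, which are given under Other observations. Of 11 fibroblast markers, 5 were called higher and 0 lower (median 0.68), and their FPKM summed to 1398 and 1852 for WT MI and to 3359 and 3134 in the KO-labelled infarct libraries. Of 12 macrophage markers 0 were called, at a median of 0.66 (0.41 without *Card9* KO MI replicate 1) and summed levels of 1492 and 1892 against 3006 and 2178. Of the 6 neutrophil markers tested 0 were called, at a median of -0.61 (-1.03 without WT MI replicate 2), with sums of 212 and 93.2 against 59.8 and 46.7. Of 20 endothelial markers 0 were called (median 0.2, and 0.1 without *Card9* KO MI replicate 1), with sums of 736 and 751 against 872 and 839. Of 12 cardiomyocyte markers 0 were called (median -0.16). The part of any of these cells in the *Pgf* level was not tested.

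Against WT Sham, the KO-labelled infarct libraries differ by genotype label as well as infarction, which cannot be told apart, and this comparison shares its WT Sham libraries with the comparison of WT MI. Of the 10 members, 5 were called higher, against 34.8% of all genes, and 4 lower, against 14.3%, and the libraries did not overlap for 10 members, against 76.1% of all genes. All genes together gave 4569 higher and 1875 lower at a median of 0.24, but 3040 and 3144 after upper-quartile scaling, 2841 and 3409 with quantile normalization, and 3642 and 2527 with scaling without the most abundant genes. *Pgf* was 3.67-fold WT Sham (log2 fold change 1.56, adjusted p = 0.00021), against 7.67-fold in WT MI. *Vegfb* (-0.92, adjusted p = 0.0006), *Vegfa* (-0.69, adjusted p = 0.0035) and *Kdr* (-0.57, adjusted p = 0.0042) were lower under all 15 settings, all from limma. *Vegfd* (1.01, adjusted p = 0.010) and *Nrp2* (0.6, adjusted p = 0.0061) were higher. The *Vegfd* call was lost with quantile normalization (0.59) and without WT Sham replicate 2 (0.85) or *Card9* KO MI replicate 1 (0.69), and that of *Nrp2* under upper-quartile (0.31) and quantile (0.36) scaling. *Vegfc* (0.51), *Flt1* (-0.32) and *Flt4* (0.4) had an adjusted p of 0.030, 0.048 and 0.049, and kept the call in 7 of 14, 7 of 15 and 4 of 15 settings. *Vegfc* (0.46 to 0.56) and *Flt1* (-0.4 to -0.25) lost it when any of the 4 libraries was left out, and *Flt4* without WT Sham replicate 1 (0.27), *Card9* KO MI replicate 1 (0.45) or *Card9* KO MI replicate 2 (0.36). Under upper-quartile and quantile scaling *Flt4* was 0.13 and 0.06, and *Vegfc* 0.26 and 0.1.

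The order of the family in each group shows which members had the highest mRNA level, since FPKM is per length, though the lengths used are not given. In WT Sham, *Vegfb* and *Vegfa* led with mean FPKM of 259 and 176, followed by *Kdr* (60.6), *Nrp1* (40.1), *Flt1* (26.2), *Nrp2* (16.7), *Flt4* (7.29), *Vegfc* (3.87), *Vegfd* (3.07) and *Pgf* (2.83). The libraries of *Vegfd* and *Pgf* overlapped, and no other neighbours did. In WT MI, *Pgf* followed *Flt1* (27.1) at 21.7, overlapping with *Nrp2* (20.8), and *Nrp1* (43.5) stood above *Kdr* (37.5). In the KO-labelled infarct libraries, *Nrp2* (25.8) stood above *Flt1* (20.8), and *Pgf* (10.4) overlapped with *Flt4* (9.93), *Vegfb* with *Vegfa*, and *Vegfd* with *Vegfc*. In all, 5 of 27 neighbouring pairs overlapped.

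Ratios within a library do not depend on its scaling, and they describe mRNA per gene, not protein. *Flt1* to *Kdr* was 0.431 and 0.434 for WT Sham, 0.83 and 0.635 for WT MI, and 0.5 and 0.525 in the KO-labelled infarct libraries. The 3 groups did not overlap, and WT MI replicate 1 was the highest. *Pgf* to *Vegfa*, which both bind FLT1, was 0.0162 and 0.016 for WT Sham, 0.216 and 0.185 for WT MI, and 0.122 and 0.0744 under the KO label, again without overlap. *Nrp1* to *Kdr* was 0.658 and 0.666 for WT Sham and above 1 in the infarct groups, at 1.24 and 1.1 for WT MI and 1.21 and 1.04 under the KO label, where the infarct groups overlapped. *Vegfa* to *Vegfb* ranged from 0.62 to 0.796 over the 6 libraries, with WT MI (0.727 and 0.729) inside the range of WT Sham (0.742 and 0.62). Under the KO label it was 0.793 and 0.796, above both other groups.

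**Figure D3:**
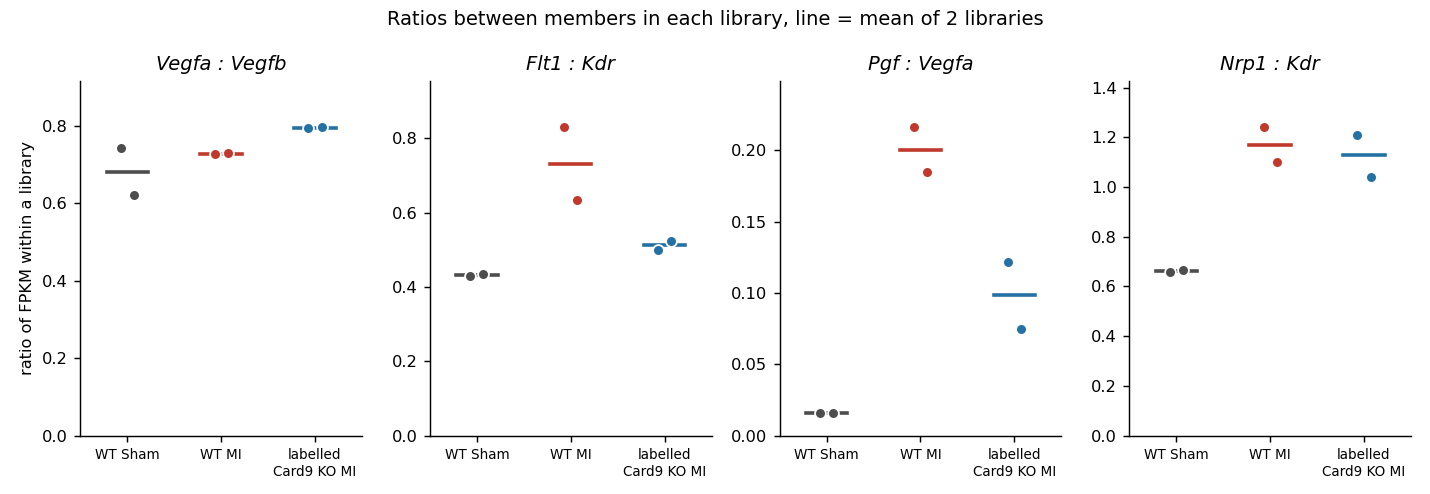
Ratios of FPKM between pairs of members within each library, as points, with the group mean as a line and axes from 0. The *Flt1* to *Kdr* ratio is 0.433 on average in WT Sham, 0.732 for WT MI and 0.513 in the KO-labelled infarct libraries, and *Pgf* to *Vegfa* is lowest in WT Sham.

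The summed FPKM of the 5 ligands was 451 and 438 for WT Sham, 289 and 295 for WT MI, and 243 and 296 in the KO-labelled infarct libraries. *Vegfa* and *Vegfb* together made up 97.7% and 97.9% of it for WT Sham, 88% and 88.4% for WT MI, and 88.9% and 93.1% under the KO label. The share of *Pgf* was 0.672% and 0.601% for WT Sham, 7.99% and 6.89% for WT MI, and 4.8% and 3.07% under the KO label. Receptor and co-receptor FPKM summed to between 136 and 154 in every library.

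Oxygen sensing was followed next to the ligands because *Vegfa* is a classical target of the hypoxia-inducible factors (HIFs). In WT MI against WT Sham, 27.7% of all genes were called higher and 9.39% lower. Of 8 HIF subunit and oxygen sensor genes tested, 1 rose and 2 fell there (median -0.14, but 0.02 without WT Sham replicate 1 and 0.06 without the filter). *Hif1a*, an oxygen-regulated subunit, rose from an FPKM of 23.33 and 21.54 to 58.48 and 54.82 (by 1.3 on the log2 scale, adjusted p = 0.0001 from limma). *Egln1*, which encodes a prolyl hydroxylase that marks HIF for degradation, fell from 175.89 and 168.24 to 90.25 and 91.02 (-0.92, adjusted p = 0.00094 from limma). The other gene called lower was *Epas1*, which encodes another oxygen-regulated HIF subunit, so these subunits moved in opposite directions. Of 22 other HIF targets, 8 rose and 4 fell (median 0.44, and 0.2 under upper-quartile or quantile scaling). The glucose transporter gene *Slc2a1* rose from 6.24 and 7.66 to 33.51 and 23.24 (1.87, adjusted p = 0.00035 from limma), so *Vegfa* fell while this target rose. In the KO-labelled infarct libraries, 0 of the 8 and 0 of the 22 were called against WT MI, at medians of -0.07 for both lists.

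Over all genes, 27.7% were called higher and 9.39% lower in WT MI against WT Sham. Downstream of the receptors, 12 of 29 tested signal transducers rose and 0 fell in WT MI (median 0.31, and 0.1 with upper-quartile scaling). The largest rises were those of *Pla2g4a*, a cytosolic phospholipase (FPKM of 0.77 and 0.92 in WT Sham against 7.0 and 5.87 in WT MI), and of *Sphk1*, a sphingosine kinase (FPKM of 1.24 and 0.56 against 5.62 and 6.45), with adjusted p of 0.00031 and 0.00066 from limma. With such low WT Sham values, both genes needed the infarct libraries, where they are high, to pass the filter. Of 18 genes induced by VEGF or found in endothelial tip cells, 6 rose and 1 fell (median 0.49, and 0.31 without WT MI replicate 1), led by *Plaur*, the urokinase receptor, which rose from 3.43 and 2.86 to 26.08 and 23.51 (by 2.64 on the log2 scale, adjusted p = 2.5e-05 from limma) and which myeloid cells also express. Of 14 tested genes of VEGF-binding or angiogenesis-restraining proteins, 11 rose and 0 fell (median 1.02). Thrombospondin *Thbs1* rose from 7.17 and 5.28 to 54.72 and 61.43, and *Ccn2*, a matricellular protein, from 43.03 and 34.96 to 273.08 and 226.72, both with an adjusted p of 2.3e-05 from limma.

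Against WT MI, 0 of the 29 transducers and 0 of the 18 induced genes were called in the KO-labelled infarct libraries (medians 0.03 and 0.19; the first was -0.02 with upper-quartile scaling and the other 0.0 without WT MI replicate 2). Of the 14 restraining proteins 3 were called higher and 0 lower (median 0.31): *Thbs2*, at 5.03 and 6.32 for WT MI and 15.55 and 14.1 under the KO label (log2 fold change 1.25, adjusted p = 0.027 from limma), *Col18a1*, the source of endostatin, at 17.98 and 16.05 against 34.64 and 29.38 (0.87, adjusted p = 0.044 from limma), and *Sparc*. These genes of the matrix were higher beside the 5 fibroblast markers given above, and the part of fibroblast RNA in them was not tested. The calls of this comparison depended on the fit, since 107 higher and 77 lower over all genes became 7 and 5 without the filter.

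**Figure D4:**
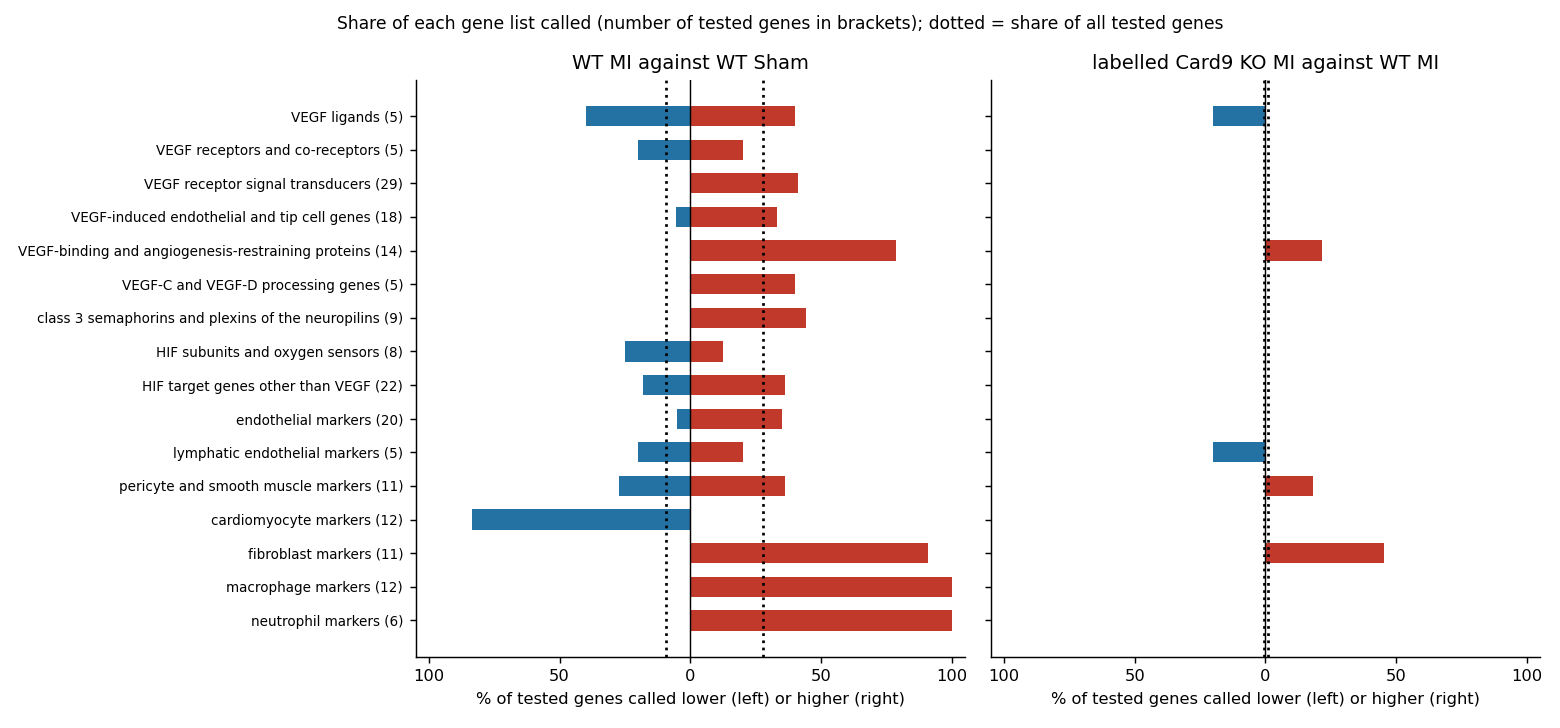
Percentage of the tested genes of each list called higher (right, red) or lower (left, blue), for WT MI against WT Sham and for the KO-labelled infarct libraries against WT MI; dotted lines give the share of all 13120 genes. Cardiomyocyte markers stand out to the left (10 of 12) and macrophage markers to the right (12 of 12) in the left panel, and most lists have 0 calls in the right panel.

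The genes whose levels over the 6 libraries lay nearest to those of 3 members were ranked by Euclidean distance of centred log2(FPKM + 1), as a description of these libraries. Nearest to *Pgf* was *Fosl1*, a subunit of the AP-1 transcription factor, at a distance of 0.37, with an FPKM of 0.56 and 0.58 for WT Sham, 6.99 and 6.14 for WT MI, and 3.97 and 3.28 under the KO label. The chemokine gene *Cxcl3* (0.42), the C-type lectin receptor gene *Clec4e* (0.5), *Gda* (0.53) and the P-selectin gene *Selp* (0.57) followed. Nearest to *Vegfa* were *Lrrc39*, which encodes a protein of the sarcomere's M-band (0.1), *Pde4d* (0.12), *Prkce* (0.12), *Rassf3* (0.14) and *Tmc7* (0.15). Nearest to *Kdr* was *Pxmp4*, a peroxisomal membrane protein gene (0.09), then *Mif4gd* (0.12), *Eif4a2* (0.13), *Tcim* (0.14) and *C130080G10Rik* (0.15).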

How the data were processed

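RNA of heart tissue below the ligature was sequenced in 3 groups of 2 libraries, grouped and numbered by their titles. The authors enriched mRNA with oligo(dT) beads, prepared TruSeq libraries, sequenced them on an Illumina HiSeq, and mapped filtered reads to mm9 with BWA and Bowtie2. They deposited an FPKM per NCBI gene number, to 2 decimals, for genes above 0; the annotation and strand setting are not given in the sources used here. Missing genes were set to 0. Symbols came from a RefSeq table of GRCm38.p6 (17390 of 17441 numbers matched) and mm9 positions from GENCODE. A miRNA gene shares 80 exon bases with *Nrp1*, and none of the other members shares exon bases with another gene.

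Genes reaching an FPKM of 1 in 2 or more libraries were tested with limma 3.58.1 in R 4.3.3 (lmFit, eBayes with trend) on log2(FPKM + 1), the 3 groups in 1 fit, two-sided, with Benjamini-Hochberg adjustment; the fit was tested on simulated data. With 2 against 2 libraries an exact permutation test cannot go below p = 0.333, and none was run. The screen of the study was recomputed in Python 3.11.15. Depth was estimated from 3131 genes with a single coding transcript; 82.3% to 87.6% of low values came within 0.25 of a whole fragment, against 50% by chance, so counts were not rebuilt. Members and lists were chosen with earlier results of these data known. Genes named are all members, *Card9*, up to 2 called genes with the largest change per list and comparison, and the nearest profiles. *Cyyr1*, *Cldn5*, *Epas1*, *Sparc*, *Camp*, *Ly6g*, *Mmp8*, *Retnlg*, *Rgs5*, *Kcnj8* and *Abcc9* were added after their values were seen.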

Additional observations from a re-analysis of the deposited data

How the results depend on the processing

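Of the 417 values of single members under an alternative, 356 kept their direction and side of the threshold, 46 lost the call and 15 changed sign. With each library of the comparison left out in turn, the members called higher after infarction in WT mice numbered 1 to 2 in place of 3, those lower in the KO-labelled infarct libraries than in WT MI 0 in place of 1, and those higher in the KO-labelled infarct libraries than in WT Sham 2 to 3 in place of 5. The screen of the study gave 1 higher and 0 lower in WT MI against WT Sham, and 1 and 0 for the KO-labelled infarct libraries against WT Sham; requiring a 2-fold change as well gave 0 lower in both. The lower call of the KO-labelled infarct libraries against WT MI became 0 with an FPKM of 0.1 added, without the filter, with only the groups compared and without trend. The 5 higher against WT Sham became 2 with upper-quartile scaling, 1 with quantile normalization, 3 without the 100 most abundant genes and 2 with the added fold threshold. Sign changes occurred among values that were not called. In WT MI against WT Sham, *Flt1* was -0.19, -0.15 and -0.1 and *Nrp1* -0.13, -0.05 and -0.03 with upper-quartile, quantile and abundant-gene scaling, and *Flt1* lay between -0.02 and 0.12 with libraries left out. In the KO-labelled infarct libraries against WT MI, *Vegfa* was 0.02 with quantile normalization, and with libraries left out lay between -0.18 and 0.17, *Vegfb* between -0.3 and 0.04, *Vegfd* between -0.39 and 0.26 and *Kdr* between -0.0036 and 0.23; *Nrp1* was -0.12 against WT Sham with upper-quartile scaling. The cause of these shifts was not tested. Over all genes, 107 higher and 77 lower between the infarct groups became 7 and 5 without the filter, 40 and 18 without trend, 47 and 33 with 0.1 added, 200 and 112 with 5 added, 69 and 32 with only these groups, 148 and 136 with a mean FPKM of at least 5, and 3 to 11 and 5 to 9 with an infarct library left out. The 3637 higher and 1232 lower after infarction in WT mice became 2256 to 2994 and 627 to 839 with a library left out, 2453 and 2351 with upper-quartile scaling and 2288 and 2416 with quantile normalization; the scalings are set out above for the comparison of the KO label with WT Sham. *Vegfc* has no value with a mean FPKM of at least 5.

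Same-numbered libraries did not deviate together (correlation across genes 0.002, -0.008 and 0.02 for the 3 pairs of groups). No shift over all genes was thus shared by number, but 2 libraries a group cannot show whether the numbers pair samples. With the replicate block, 3 members were higher and 3 lower after infarction in WT mice, 1 was lower under the KO label than in WT MI (45 higher and 26 lower over all genes), and 4 were higher and 3 lower under the KO label than in WT Sham.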

Other observations

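Class 3 semaphorins share the neuropilins with VEGF, through complexes with plexins. Of 9 tested semaphorin and plexin genes, 4 rose and 0 fell in WT MI against WT Sham, where 27.7% of all genes were called higher (median log2 fold change 0.21, but 0.03 and 0.04 under upper-quartile and quantile scaling), led by *Sema3f*, whose protein acts through NRP2, with an FPKM of 6.75 and 5.21 for WT Sham and 20.48 and 17.11 for WT MI (adjusted p = 0.00036 from limma). Of 5 tested genes of enzymes that process VEGF-C and VEGF-D, 2 rose and 0 fell (median 0.4, but 0.06 with quantile normalization and 0.14 without WT Sham replicate 1): *Furin*, a proprotein convertase, and *Ctsd*, a lysosomal protease. Neither list had a call in the KO-labelled infarct libraries against WT MI.

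Vessel wall and lymphatic markers moved in both directions. Of 11 pericyte and smooth muscle markers, 4 rose and 3 fell in WT MI, against 27.7% and 9.39% of all genes (median 0.24, but -0.02 with quantile normalization). The contractile gene *Acta2*, which myofibroblasts also express, stood at an FPKM of 34.75 and 54.23 for WT Sham, 117.28 and 97.16 for WT MI, and 252.13 and 239.14 in the KO-labelled infarct libraries (adjusted p = 0.039 from limma against WT MI), whereas *Rgs5*, *Kcnj8* and *Abcc9* fell in WT MI. Under the KO label 2 of the 11, *Acta2* and *Tagln*, were called higher than in WT MI and 0 lower. Over all genes, calls between the infarct groups went from 107 higher and 77 lower to 7 and 5 without the filter. Of 5 tested lymphatic markers, *Pdpn* rose and *Prox1* fell in WT MI, and *Lyve1*, which resident macrophages also express, was the 1 call under the KO label, at 12.57 and 14.38 for WT MI against 4.7 and 6.84 (a log2 difference of -1.11, adjusted p = 0.037 from limma). Which cells the changes of *Pdpn*, *Prox1* and *Lyve1* came from was not tested.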
